A study of Mus musculus with 6 samples.

Results

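The genes described here are 44 genes of DNA replication and S phase, the part of the cell cycle in which the genome is copied. They were chosen by symbol from a list of origin licensing factors, helicase subunits, polymerases, clamp loaders, nucleotide enzymes and chromatin assembly factors. All 44 were among the 14408 genes of the expression table, which is in FPKM (fragments divided by gene length and by the library's size), and all 44 passed the filter of a mean of 1 FPKM and were tested. RNA was sequenced from left ventricle, as labelled, of male C57BL/6J mice carrying a diet-induced model of HFpEF (heart failure in which ejection fraction is preserved). The study asked how L-proline alters gene expression in this model, with ferroptosis and the nuclear receptor PPARγ as its stated interest. Mice of both groups were 8 weeks old at the start and received a high-fat diet together with L-NAME, which blocks nitric oxide synthesis, at 0.5 g/L in the drinking water for 8 to 12 weeks. The L-proline group, with 3 libraries, was then injected intraperitoneally every day with L-proline at 300 mg/kg for 4 to 8 weeks, and the PBS group, with 3 libraries, was the vehicle control. The exact length of either period is not given per library, and mice without the model are not analysed here.

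A cell licenses its origins in G1, when the origin recognition complex, CDC6 and CDT1 load the ring-shaped MCM helicase onto DNA. At the start of S phase, CDC45 and the GINS complex join the ring to form the active helicase, and polymerases, the sliding clamp and the ligase copy both strands while new histones are deposited behind the fork. Transcription of most of these genes peaks around the entry into S phase under E2F factors, whereas the genes of mitosis peak later, and heart muscle cells of adult mice are known to enter the cycle seldom.

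Library totals recovered from the FPKM values ran from 34990473 to 36778787 fragments in the L-proline group and from 35925065 to 37498030 in the PBS group. Replication genes were covered by 184 fragments (Orc1) to 8610 fragments (Rrm2) per library. Whether each library is 1 mouse is not stated in the labels, so p-values measure only how far these libraries spread, which may be technical. Markers did not match whole ventricle. Of the 13 markers of cardiomyocytes, 6 were in the table and 2 averaged 1 FPKM or more. The sarcomere genes Ttn, Myl2 and Tnni3 and the calcium channel gene Ryr2 did not exceed 0.212 FPKM in any library. The summed level of the listed cardiomyocyte markers was 16.8 to 19.96 FPKM in L-proline and 34.8 to 36.5 FPKM in PBS, most of it Tnnt2. Summed fibroblast markers, with 7 of 10 listed, were at 5119 to 5421 FPKM in L-proline and 4835 to 5034 FPKM in PBS. They did not move together: Col1a1, Col1a2 and Col3a1 rose, Pdgfra and Vim fell, and Dcn and Postn did not pass. Col3a1 averaged 1824 FPKM in L-proline and 1226 FPKM in PBS, and Vim averaged 2328 and 2871 FPKM. Summed endothelial markers, with 5 of 8 listed, were at 2.31 to 3.18 FPKM in L-proline and 5.86 to 6.52 FPKM in PBS. Most of that sum was Fabp4, at 1.98 to 2.99 FPKM in L-proline and 5.51 to 6.31 FPKM in PBS, which other cell types also express. Pecam1, which defines endothelial cells, was higher in all L-proline libraries but did not exceed 0.0735 FPKM, backed by 1 to 9 fragments. Summed smooth muscle and pericyte markers, with 8 of 8 listed, were at 852 to 1050 FPKM in L-proline and 944 to 1059 FPKM in PBS. Summed macrophage markers, with 3 of 8 listed, were at 6.52 to 7.72 FPKM in L-proline and 4.56 to 5.59 FPKM in PBS. Most of that sum was Cd68, which averaged 5.19 FPKM in L-proline and 3.17 FPKM in PBS, whereas Lyz2 overlapped between groups and did not pass. The part of these shifts in the results for replication genes was not tested.

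Of the 44 replication genes, 11 fell in L-proline and none rose (limma on log2(FPKM + 1), adjusted p under 0.05 over 10500 genes). The 11 were Tk1, Rrm2, Prim2, Lig1, Chaf1b, Gins1, Rfc1, Slbp, Cdc45, Gins2 and Uhrf1. That is 25% of the list, against a background of 12.1% of all tested genes lower and 7.5% higher. At an unadjusted p under 0.05, 15 were lower and 0 higher. Over all 10500 genes, 3687 had such a p, and 1398 of them were higher. With limma-voom on the recovered fragments, 10 of the 44 were lower (22.7%, against 12.3% of all genes) and 0 higher. The median log2 fold change of L-proline over PBS was -0.20 for the 44 genes and -0.06 for all genes tested. The fold change lay below 0 for 39 genes, against 6237 of all 10500 genes, and above 0 for Cdt1, Gins4, Rfc3, Rfc4 and Tyms. Of the 39, Orc6, Mcm10, Gins3, Chaf1a, E2f1 and Ccne2 moved above 0 under median-of-ratios scaling. Every L-proline library lay below every PBS library for 14 of the 44 genes, the 11 called and Mcm3, Mcm6 and Dut, against a background of 24% of all genes. In bulk tissue, fewer cells in S phase and less RNA per cell cannot be told apart. The count depended on single libraries. Leaving out PBS 1, PBS 2 or PBS 3 in turn gave 5, 4 and 2 genes, and leaving out L-proline 1, L-proline 2 or L-proline 3 gave 9, 17 and 4. Without PBS 3 the genes called lower were 4.55% of the list and 4.84% of all genes, and without L-proline 1 they were 20.5% of the list and 17.1% of all genes. The shares were 11.4% and 5.56% without PBS 1, and 9.09% and 8.04% without PBS 2. They were 38.6% and 9.25% without L-proline 2, and 9.09% and 9.34% without L-proline 3.

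**Figure D1:**
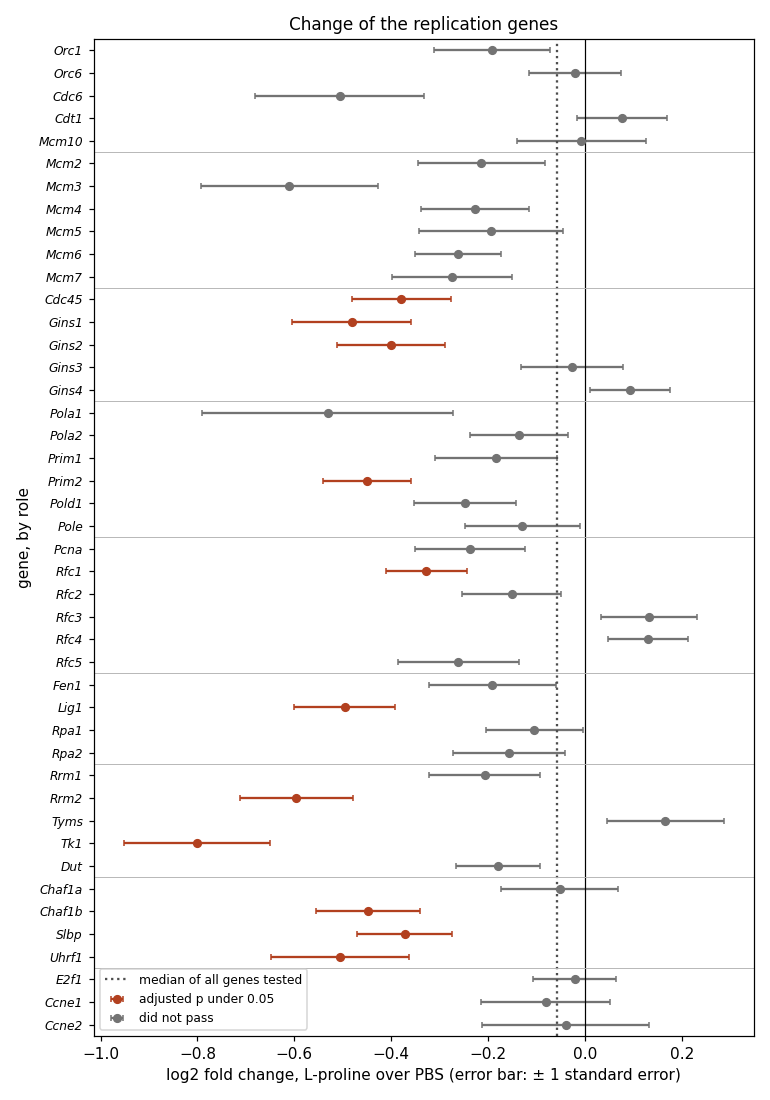
Log2 fold change of L-proline over PBS on the log2(FPKM + 1) scale (horizontal axis) for each of the 44 replication genes, ordered by role from top to bottom. Points are limma estimates, bars are 1 standard error, red marks an adjusted p under 0.05 and the dotted line is the median of all genes tested, -0.06. The 11 red genes lie between -0.80 (Tk1) and -0.33 (Rfc1), and 5 grey genes lie above 0.

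The promoters of these genes were read from the RefSeq promoter table (build GRCm38.p6, 250 bases before to 50 bases after the annotated start), which matched 36 of the 44 symbols; Mcm4, Gins1, Gins2, Gins4, Prim2, Pole, Rfc2 and Ccne2 had no entry. The letters searched for E2F were TTTCCCGC, TTTCGCGC, TTTGCCGC and TTTGGCGC on both strands, and 13 of the 36 genes (36.1%) held at least 1 match, as did 4.43% of the genes of the FPKM table with an entry. The sequences of the 4 replication genes with a match and the smallest p in the comparison are printed, with the matches in capitals; Mcm3 and Mcm6 did not pass the threshold. Lig1, at chr7:13278841-13278870 on the plus strand, has its match 27 bases after 1 of its annotated starts. Uhrf1, at chr17:56304082-56304181 on the plus strand, has its match 185 bases before the start. Mcm3, at chr1:20820266-20820295 on the minus strand, has matches 20 and 39 bases after the start. Mcm6, at chr1:128359731-128359830 on the minus strand, has matches 110, 106 and 47 bases before the start, and the first 2 overlap.
Lig1: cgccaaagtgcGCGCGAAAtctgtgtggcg
Uhrf1: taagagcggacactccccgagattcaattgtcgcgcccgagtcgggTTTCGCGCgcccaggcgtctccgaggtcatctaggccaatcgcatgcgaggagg
Mcm3: tgGCGGGAAAacttgggaagtTTTGGCGCc
Mcm6: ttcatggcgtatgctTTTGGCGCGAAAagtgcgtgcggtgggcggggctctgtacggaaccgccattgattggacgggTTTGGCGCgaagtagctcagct

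Rrm2 and Tk1, the genes that passed under every processing alternative run, held none of the E2F letters in the window. The 100 bases before their starts are printed beside the others, with the letters CCAAT, searched on both strands, in capitals. Rrm2 lies at chr12:24708154-24708253 on the plus strand, with CCAAT 50 bases before the start. Tk1 lies at chr11:117826015-117826114 on the minus strand, with no match of CCAAT in the window.
Rrm2: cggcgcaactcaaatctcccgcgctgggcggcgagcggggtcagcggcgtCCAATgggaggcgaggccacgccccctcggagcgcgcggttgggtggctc
Tk1: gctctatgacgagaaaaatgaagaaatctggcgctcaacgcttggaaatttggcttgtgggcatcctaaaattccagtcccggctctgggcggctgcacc

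Genes that fell were found with and without the letters. Of the 13 genes with E2F letters, 2 fell and the median log2 fold change was -0.26; of the 23 without, 6 fell and the median was -0.18. The CCAAT box stood in 61.1% of the replication promoters and in 43.3% of those of all listed genes. The cell cycle homology region, searched as TTTGAA and TTCGAA on both strands, is known from promoters of mitotic genes and stood in 16.7% of the replication promoters and 16.8% of all listed genes, against 77.0% of the mitosis genes compared with them.

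Enzymes of nucleotide supply held the 2 genes with the smallest p. Tk1 encodes thymidine kinase, which salvages thymidine for DNA synthesis. Its level was 20.8, 32.3 and 22.9 FPKM in L-proline 1, 2 and 3, against 41.1, 47.8 and 43.7 FPKM in PBS 1, 2 and 3. All L-proline libraries lay below all PBS libraries, with L-proline 2 nearest to them, and Tk1 fell by a log2 fold change of -0.80 ± 0.15 (SE; adjusted p = 0.00946, limma). Rrm2 encodes the small subunit of ribonucleotide reductase, which makes deoxyribonucleotides and is limiting in S phase. Rrm2 stood at 59.1, 78.8 and 62.9 FPKM in L-proline, against 92.6, 109.9 and 100.9 FPKM in PBS. PBS 2 held the highest value of any replication gene in any library, the groups were again apart, and the log2 fold change was -0.60 ± 0.12 (adjusted p = 0.0105, limma). Tk1 and Rrm2 passed in each of 17 alternatives, with an adjusted p of up to 0.0409 for Tk1 and 0.0483 for Rrm2.

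Rrm1, the large subunit of the same reductase, stood at 42.7, 54.1 and 40.6 FPKM in L-proline, against 49.9, 57.4 and 50.96 FPKM in PBS. Its groups overlapped through L-proline 2, and its log2 fold change was -0.21 ± 0.11 (adjusted p = 0.231, limma). Tyms, thymidylate synthase, makes thymidylate by the other route, from deoxyuridylate. Its level was 6.92, 8.66 and 6.90 FPKM in L-proline, against 5.83, 7.58 and 6.31 FPKM in PBS. The groups overlapped and the log2 fold change, 0.17 ± 0.12, was the highest among the 44 genes (adjusted p = 0.361, limma). Dut, the dUTPase that keeps uracil out of DNA, averaged 25.8 ± 2.25 FPKM in L-proline and 29.3 ± 1.79 FPKM in PBS (SD, n = 3 each). Its groups did not overlap, but it did not pass (log2 fold change -0.18 ± 0.09, limma, adjusted p = 0.178).

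**Figure D2:**
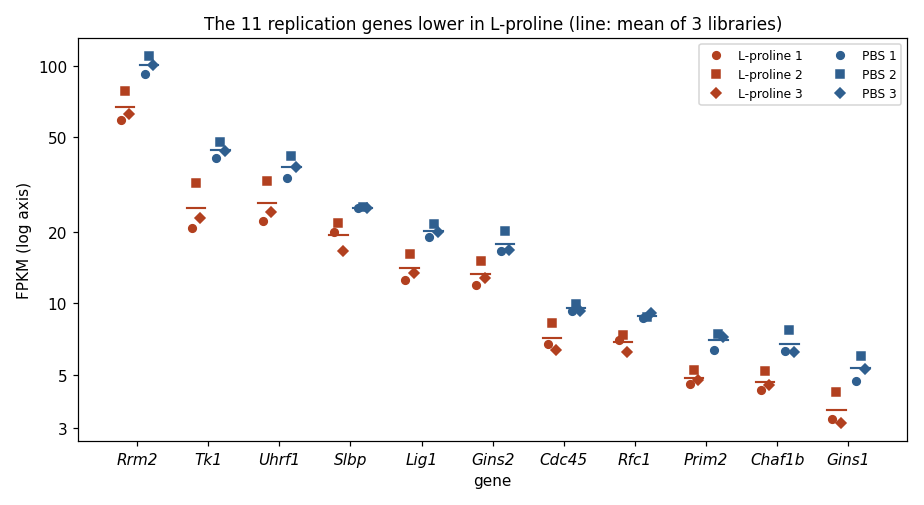
FPKM on a log axis (vertical) in each library for the 11 replication genes that fell, ordered by level. For each gene the 3 L-proline libraries (red) stand left of the 3 PBS libraries (blue), shapes give the library number and lines the means; all red points lie below all blue points of the same gene, and L-proline 2 (red square) is the highest red point in all 11.

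Of the 5 genes of CDC45 and the GINS complex, 3 fell (60%, against 12.1% of all genes). Cdc45, which joins the MCM ring when origins fire, stood at 6.78, 8.28 and 6.34 FPKM in L-proline, against 9.34, 9.95 and 9.31 FPKM in PBS. The PBS libraries were close together and all above the L-proline libraries, with a log2 fold change of -0.38 ± 0.10 (adjusted p = 0.0370, limma). Gins1 encodes a subunit of the GINS complex, which also joins the ring. It stood at 3.28, 4.24 and 3.15 FPKM in L-proline, against 4.71, 6.04 and 5.32 FPKM in PBS. Its groups were apart and its log2 fold change was -0.48 ± 0.12 (adjusted p = 0.0296, limma). Gins2, another GINS subunit, stood at 11.97, 15.1 and 12.8 FPKM in L-proline, against 16.6, 20.2 and 16.7 FPKM in PBS. It fell by a log2 fold change of -0.40 ± 0.11 (adjusted p = 0.0405, limma), with L-proline 2 closest to PBS. Gins2 shares 2758 exonic bases with Gse1 on the opposite strand in GENCODE M21, and reads of the 2 genes cannot be told apart without strand. Gse1 averaged 2.26 FPKM and had a log2 fold change of 0.29. Other genes that fell share fewer bases with an opposite-strand gene: Slbp 380 (Gm10459), Lig1 217 (Zswim9), Tk1 83 (Afmid) and Cdc45 52 (Ufd1). Afmid averaged 1.59 FPKM and had a log2 fold change of -0.57 (adjusted p = 0.00528, limma). Among genes that did not pass, Fen1, Chaf1a and Rfc2 overlap by 1908, 1862 and 952 bases.

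The remaining GINS subunits did not move with these. Gins3 averaged 6.00 ± 0.854 FPKM in L-proline and 6.11 ± 0.353 FPKM in PBS, and Gins4 averaged 21.6 ± 1.70 FPKM in L-proline and 20.2 ± 0.911 FPKM in PBS (SD, n = 3 each). Neither passed (adjusted p = 0.874 for Gins3 and 0.456 for Gins4, limma), and the difference between subunits was not tested. Of the 3 calls, that of Gins1 was lost without PBS 3, PBS 2 or L-proline 3, while those of Cdc45 and Gins2 were lost on leaving out any single library except L-proline 2. All 3 were lost with no filter and under quantile normalization, Cdc45 and Gins2 also under median-of-ratios scaling, and Gins2 with limma-voom. The highest adjusted p over the alternatives was 0.104 for Gins1, 0.115 for Cdc45 and 0.110 for Gins2.

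All 6 genes of the MCM ring had fold changes below 0 and none passed the threshold with limma or limma-voom; 2, Mcm3 and Mcm6, had an unadjusted p under 0.05. Mcm3 stood at 15.9, 26.5 and 18.3 FPKM in L-proline, against 26.8, 36.3 and 29.8 FPKM in PBS. L-proline 2 lay just below PBS 1, the nearest that these groups came, and the log2 fold change of -0.61 ± 0.18 missed the threshold (adjusted p = 0.0515, limma). Mcm3 passed at a minimum mean of 5 FPKM, under quantile normalization, with equal library sums and without L-proline 2, and its adjusted p ran from 0.0146 to 0.131 over these and the leave-one-out fits. Mcm6 stood at 27.7, 31.7 and 26.0 FPKM in L-proline, against 32.6, 36.2 and 34.2 FPKM in PBS, with a log2 fold change of -0.26 ± 0.09 (adjusted p = 0.0743, limma). Its groups did not overlap either, and it passed with equal library sums. Both genes carry E2F letters in the sequences printed above.

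The other 4 ring genes overlapped between groups. Mcm2 was at 18.96, 27.2 and 23.2 FPKM in L-proline, against 25.2, 29.8 and 25.4 FPKM in PBS. Mcm4 was at 20.8, 26.0 and 19.3 FPKM in L-proline, against 24.3, 26.9 and 26.2 FPKM in PBS. Mcm5 was at 17.1, 24.7 and 19.6 FPKM in L-proline, against 20.2, 27.3 and 22.8 FPKM in PBS. In each of them L-proline 2 alone reached into the PBS range. Mcm7 was at 26.3, 35.8 and 28.2 FPKM in L-proline, against 34.2, 40.7 and 34.4 FPKM in PBS, again with L-proline 2 inside the PBS range. Log2 fold changes of these 4 genes ran from -0.27 (Mcm7) to -0.19 (Mcm5), with adjusted p from 0.155 to 0.382 (limma). Without L-proline 2, Mcm4, Mcm6 and Mcm7 passed as well.

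None of the 5 genes grouped as origin recognition and licensing, with Mcm10 placed among them, passed with limma or limma-voom. Of these, 1, Cdc6, had an unadjusted p under 0.05. Cdc6, the ATPase that loads the MCM ring, averaged 2.60 ± 0.857 FPKM in L-proline and 4.06 ± 0.697 FPKM in PBS (SD, n = 3 each), and its groups overlapped. Its log2 fold change was -0.51 ± 0.17 (adjusted p = 0.0781, limma), and it passed without L-proline 2. Orc1, a subunit of the origin recognition complex, averaged 2.04 ± 0.333 FPKM in L-proline and 2.47 ± 0.367 FPKM in PBS. Orc6, another subunit, averaged 25.4 ± 2.48 FPKM in L-proline and 25.7 ± 1.96 FPKM in PBS. Cdt1, the partner of CDC6 in loading, averaged 15.7 ± 1.41 FPKM in L-proline and 14.8 ± 1.11 FPKM in PBS. Mcm10, which acts with the helicase when forks start, averaged 4.84 ± 0.991 FPKM in L-proline and 4.83 ± 0.484 FPKM in PBS. For Orc6, Cdt1 and Mcm10 the difference of the means was smaller than the spread within either group.

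Of the polymerase and primase genes, 1 of 6 fell (16.7%, against 12.1% of all genes). Prim2, the regulatory subunit of the primase that starts each new strand, stood at 4.57, 5.24 and 4.77 FPKM in L-proline, against 6.40, 7.43 and 7.20 FPKM in PBS. The groups were apart, and the log2 fold change was -0.45 ± 0.09 (adjusted p = 0.0118, limma). The call was lost without PBS 3 and under quantile normalization, and the highest adjusted p over the alternatives was 0.0791. Prim1, the catalytic primase subunit, averaged 21.5 ± 3.97 FPKM in L-proline and 24.3 ± 1.24 FPKM in PBS, with an adjusted p of 0.333 (limma). Pola1, the catalytic subunit of polymerase alpha, was the most scattered gene of its role, at 5.71, 4.17 and 2.14 FPKM in L-proline, against 7.26, 4.83 and 5.83 FPKM in PBS. L-proline 3 was low and the other two L-proline libraries were near or inside the PBS range, so that a log2 fold change of -0.53 ± 0.26 did not pass (adjusted p = 0.183, limma). Without L-proline 1, Pola1 passed. Pola2, Pold1 and Pole, a second subunit of polymerase alpha and the catalytic subunits of polymerases delta and epsilon, had log2 fold changes between -0.25 (Pold1) and -0.13 (Pole) and did not pass.

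The clamp and its loader were split. Pcna encodes the ring that holds polymerases on DNA and is widely used to mark cycling cells. It stood at 76.8, 97.2 and 73.9 FPKM in L-proline, against 89.3, 104.4 and 97.5 FPKM in PBS. L-proline 2 lay between PBS 1 and PBS 3, and the log2 fold change of -0.24 ± 0.11 did not pass (adjusted p = 0.174, limma), though it did without L-proline 2. Rfc1, the large subunit of the clamp loader, stood at 6.99, 7.35 and 6.25 FPKM in L-proline, against 8.68, 8.76 and 9.11 FPKM in PBS. Each group was tight and the groups were apart, with a log2 fold change of -0.33 ± 0.08 (adjusted p = 0.0303, limma). The call was lost without PBS 1, PBS 2, PBS 3 or L-proline 3, and under median-of-ratios and quantile scaling, with an adjusted p of up to 0.135. Among the small loader subunits, Rfc3 averaged 15.3 ± 1.74 FPKM in L-proline and 13.9 ± 1.09 FPKM in PBS. Rfc4 averaged 19.5 ± 1.57 FPKM in L-proline and 17.7 ± 0.881 FPKM in PBS (SD, n = 3 each). Neither passed, nor did Rfc2 (log2 fold change -0.15) or Rfc5 (log2 fold change -0.26).

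On the lagging strand, where short fragments are made and joined, Lig1 fell. The ligase that seals the fragments stood at 12.6, 16.2 and 13.4 FPKM in L-proline, against 18.98, 21.7 and 19.9 FPKM in PBS. The highest L-proline library lay below the lowest PBS library, and the log2 fold change was -0.50 ± 0.10 (adjusted p = 0.0146, limma). The call held in 16 of 17 alternatives and was lost without PBS 3, at an adjusted p of 0.0609. Fen1, the nuclease that trims the flaps before ligation, averaged 17.98 ± 3.40 FPKM in L-proline and 20.5 ± 1.98 FPKM in PBS, with an adjusted p of 0.331 (limma). Rpa1 and Rpa2, subunits of the protein that covers single-stranded DNA, did not pass, at log2 fold changes of -0.10 and -0.16.

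Of the 4 genes of chromatin assembly, maintenance methylation and histone mRNA, 3 fell (75%, against 12.1% of all genes). Chaf1b, a subunit of the CAF complex that deposits new histones behind the fork, stood at 4.34, 5.18 and 4.53 FPKM in L-proline, against 6.29, 7.77 and 6.24 FPKM in PBS. The groups were apart, and the log2 fold change was -0.45 ± 0.11 (adjusted p = 0.0239, limma). Its partner Chaf1a averaged 23.2 ± 3.98 FPKM in L-proline and 23.9 ± 1.83 FPKM in PBS (SD, n = 3 each) and did not pass (adjusted p = 0.787, limma). Uhrf1, which brings the maintenance DNA methyltransferase to freshly copied DNA, stood at 22.3, 32.7 and 24.3 FPKM in L-proline, against 33.8, 41.6 and 37.4 FPKM in PBS. L-proline 2 lay just below PBS 1, and the log2 fold change was -0.51 ± 0.14 (adjusted p = 0.0423, limma).

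Slbp encodes the protein that binds the stem-loop at the end of histone mRNAs and is needed for their processing and translation. It stood at 19.9, 21.7 and 16.7 FPKM in L-proline, against 25.2, 25.4 and 25.3 FPKM in PBS. The PBS libraries were nearly equal and the L-proline libraries spread below them, with a log2 fold change of -0.37 ± 0.10 (adjusted p = 0.0340, limma). The calls of Slbp, Chaf1b and Uhrf1 were each lost without PBS 1, PBS 2, PBS 3 or L-proline 3, and that of Uhrf1 also without L-proline 1. Chaf1b was lost under quantile normalization too, and Uhrf1 with no filter and under median-of-ratios scaling. Their adjusted p reached 0.119 for Slbp, 0.0875 for Chaf1b and 0.126 for Uhrf1.

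The 3 genes of entry into S phase did not pass, none had an unadjusted p under 0.05 and limma-voom called none. E2f1, a transcription factor that switches on replication genes, stood at 15.8, 17.8 and 19.2 FPKM in L-proline, against 17.5, 18.4 and 17.6 FPKM in PBS. The groups lay across each other and the log2 fold change was -0.02 ± 0.09 (adjusted p = 0.879, limma). Ccne1, a cyclin of the G1 to S transition, stood at 10.6, 13.5 and 13.1 FPKM in L-proline, against 11.96, 15.9 and 11.8 FPKM in PBS. Ccne2, its close relative, stood at 3.65, 4.75 and 2.49 FPKM in L-proline, against 3.51, 4.13 and 3.38 FPKM in PBS. Both cyclins overlapped between groups, with log2 fold changes of -0.08 ± 0.13 and -0.04 ± 0.17 (adjusted p = 0.694 and 0.888, limma).

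**Figure D3:**
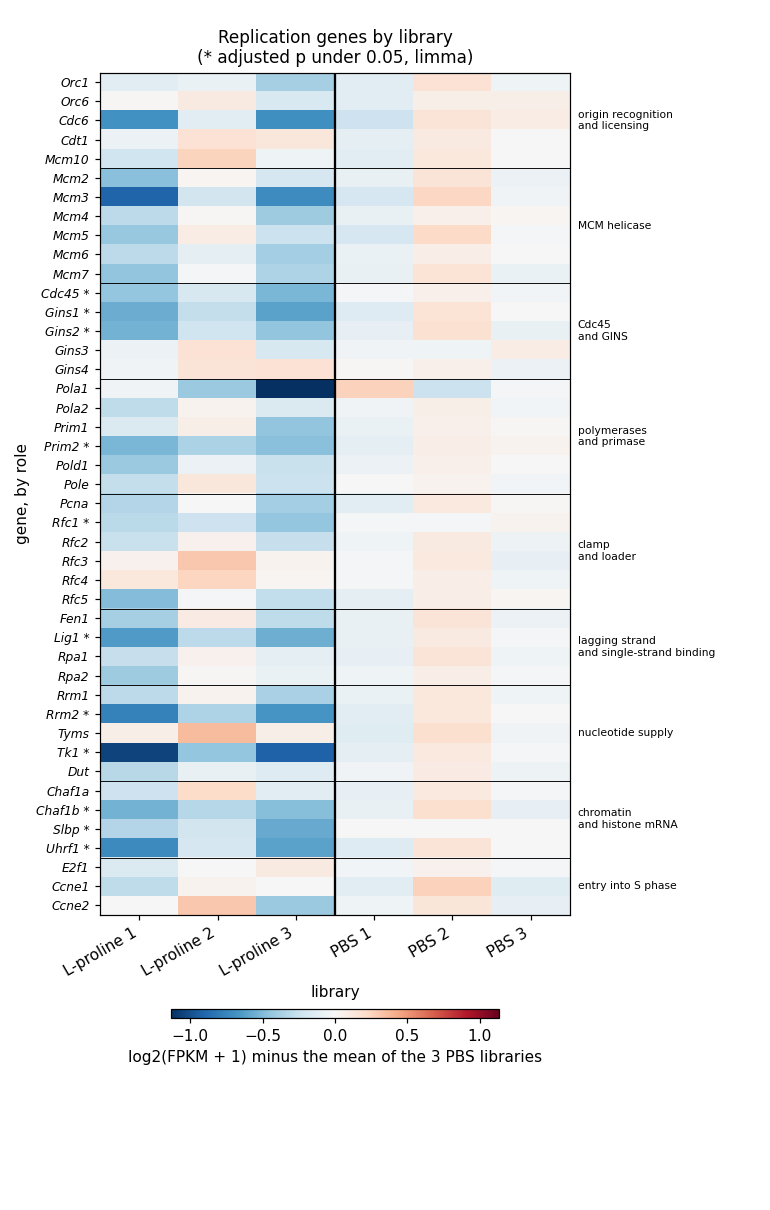
Colour gives log2(FPKM + 1) of each replication gene (rows, by role) in each library (columns, L-proline left of the black line, PBS right) minus the mean of the 3 PBS libraries; blue is lower and red is higher, and a star marks an adjusted p under 0.05. L-proline 1 and 3 are blue for most genes, L-proline 2 is paler, and PBS 2 is the reddest PBS library.

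Levels of replication genes moved together from library to library within each group. L-proline 2 was the highest library of its group for 41 of the 44 genes (93.2%), and PBS 2 was the highest of its group for 41 of the 44 as well. Among all genes tested these libraries were the highest of their group for 34.0% and 41.4% of genes. For 39 genes both held at once, the exceptions being Gins3, Gins4, Pola1, Rfc1 and E2f1. Libraries L-proline 2 and PBS 2 also had the lowest total of their group, and their FPKM values summed to the most, 416799 and 406675; what ties these facts together was not tested. L-proline 2 lay below the lowest PBS library for 15 of the 44 genes (34.1%, against 40.2% of all genes tested). L-proline 1 and L-proline 3 each did so for 36 (81.8%, against 41.9% and 49.3% of all genes tested). With both libraries numbered 2 left out, an alternative chosen after seeing the data, 5 replication genes fell (11.4%, against 3.58% of all genes). They were Mcm3, Lig1, Rrm2, Tk1 and Uhrf1.

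A further list of replication and S phase genes, drawn up to cover the rest of the machinery, had 53 tested genes of 55 listed. Of these, 10 fell (18.9%, against 12.1% of all genes) and none rose (limma), and the median log2 fold change was -0.19. With limma-voom 11 were lower (20.8%, against 12.3% of all genes) and 0 higher. At an unadjusted p under 0.05, 2 of the 53 were higher, against 1398 of all 10500 genes. These were Mcm8 and Mtbp, with log2 fold changes of 0.31 each. Clspn encodes claspin, which couples the fork to the checkpoint kinase. It stood at 3.08, 3.54 and 2.87 FPKM in L-proline, against 5.02, 5.19 and 5.15 FPKM in PBS, with a log2 fold change of -0.56 ± 0.09 (adjusted p = 0.00523, limma). Rnaseh2a, the catalytic subunit of the enzyme that removes ribonucleotides from DNA, stood at 15.6, 18.2 and 16.8 FPKM in L-proline, against 22.9, 25.1 and 24.1 FPKM in PBS. Its log2 fold change was -0.49 ± 0.08 (adjusted p = 0.00578, limma). Both genes had clear gaps between the groups.

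Asf1b, a histone chaperone of the fork that hands histones to the CAF complex, changed most among the 10. It stood at 14.6, 23.99 and 15.4 FPKM in L-proline, against 34.6, 37.1 and 33.6 FPKM in PBS, and fell by a log2 fold change of -0.96 ± 0.17 (adjusted p = 0.00696, limma). Brca1, which protects stalled forks and repairs breaks, stood at 3.44, 3.28 and 1.95 FPKM in L-proline, against 6.35, 4.83 and 5.84 FPKM in PBS, with a log2 fold change of -0.79 ± 0.17 (adjusted p = 0.0146, limma). L-proline 2 was the highest of its group for Asf1b and not for Brca1. The other genes that fell included Ticrr, Donson, Dck, Gmnn and Chtf18. Dck acts in nucleotide supply, as Tk1 and Rrm2 do, and Gmnn encodes geminin, the inhibitor of CDT1. Leaving out PBS 3 gave 3 genes lower (5.66%, against 4.84% of all genes) and leaving out PBS 1 gave 4 (7.55%, against 5.56%). Leaving out L-proline 1 gave 17 (32.1%, against 17.1% of all genes), and leaving out both libraries numbered 2 gave 3 (5.66%, against 3.58%).

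Of the regulators of the G1 to S transition, a list of 29 tested genes, 10 fell (34.5%, against 12.1% of all genes) and 2 rose (6.90%, against 7.5%). Cdkn1a, the p21 inhibitor of cyclin-dependent kinases, stood at 353, 361 and 416 FPKM in L-proline, against 232, 252 and 246 FPKM in PBS. It rose by a log2 fold change of 0.62 ± 0.08 (adjusted p = 0.00191, limma), with the groups well apart. Cdkn2d, an inhibitor of the cyclin D kinases, stood at 23.1, 22.4 and 25.05 FPKM in L-proline, against 37.2, 37.6 and 35.3 FPKM in PBS, with a log2 fold change of -0.62 ± 0.07 (adjusted p = 0.00139, limma). E2f7, a repressor among the E2F factors that acts late in S phase, stood at 3.11, 3.07 and 2.38 FPKM in L-proline, against 5.42, 5.17 and 5.68 FPKM in PBS, with a log2 fold change of -0.74 ± 0.10 (adjusted p = 0.00276, limma). Fbxo5, an inhibitor of the anaphase-promoting complex that lets cells enter S phase, stood at 4.68, 6.12 and 3.89 FPKM in L-proline, against 10.002, 8.86 and 9.62 FPKM in PBS, with a log2 fold change of -0.85 ± 0.14 (adjusted p = 0.00523, limma). All 4 genes had groups that did not overlap. Ccnd2 also rose, and E2f8, E2f2, Ccna2, Cdk6, Skp2, Ccnd1 and Tfdp2 also fell. Inhibitors and activators of the transition were thus found among the genes that fell. Without PBS 3, 6 were lower (20.7%, against 4.84% of all genes) and 1 of 29 was higher, against 362 of all 10500 genes.

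The replication genes were set against the genes of mitosis and chromosome segregation. Of 73 mitosis genes, all tested, 37 fell (50.7%, against 12.1% of all genes) and none rose (limma). With limma-voom 34 were lower (46.6%, against 12.3% of all genes) and 0 higher. In the limma fit 1 was higher at an unadjusted p under 0.05, against 1398 of all 10500 genes. The median log2 fold change was -0.20 for the replication genes, -0.46 for the mitosis genes and -0.06 for all genes. The difference between the lists was not tested. The 4 mitosis genes with the smallest p were Ncaph, Prc1, Ccnb2 and Kif23. Ncaph, a condensin subunit, stood at 22.4, 22.7 and 19.9 FPKM in L-proline, against 35.3, 33.8 and 32.4 FPKM in PBS, with a log2 fold change of -0.62 ± 0.08 (adjusted p = 0.00178, limma). Kif23, a motor of the dividing cell's midzone, stood at 10.1, 10.3 and 7.05 FPKM in L-proline, against 20.7, 17.6 and 20.98 FPKM in PBS, with a log2 fold change of -1.05 ± 0.14 (adjusted p = 0.00245, limma). Prc1, which bundles midzone microtubules, and Ccnb2, a mitotic cyclin, had log2 fold changes of -0.65 ± 0.08 and -0.90 ± 0.12 (adjusted p = 0.00196 and 0.00209, limma). The mitosis count was 13 without PBS 3 (17.8%, against 4.84% of all genes) and 17 without PBS 1 (23.3%, against 5.56%). Without both libraries numbered 2 it was 14 (19.2%, against 3.58%).

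**Figure D4:**
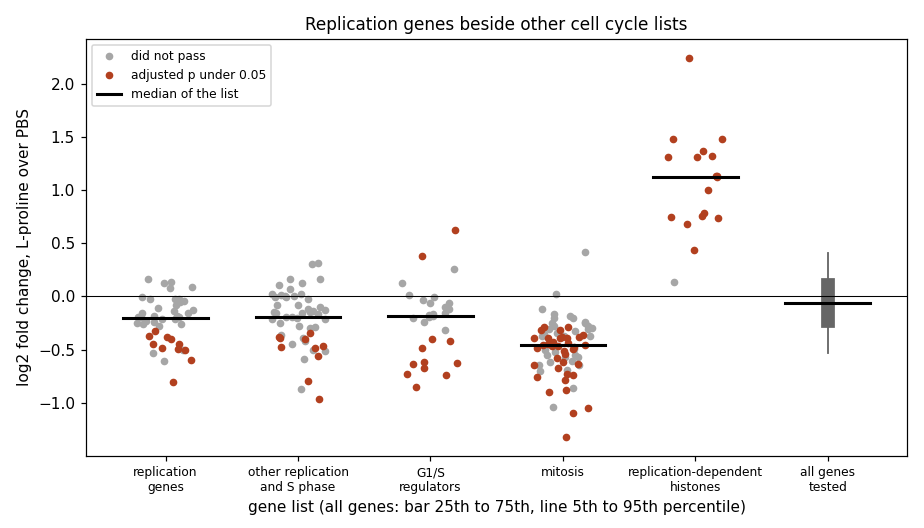
Log2 fold change of L-proline over PBS (vertical axis) for each tested gene of 5 lists; red marks an adjusted p under 0.05, thick black lines are list medians, and the last column gives the quantiles of all 10500 genes. The medians are -0.20 for the replication genes, -0.19 for the other replication genes and the G1/S regulators, -0.46 for mitosis and 1.12 for the 18 histone genes that passed the filter on level, which is 0.48 over all 61 listed.

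The libraries ordered the lists differently. The median deviation of the replication genes from their mean over the 6 libraries was -0.22, 0.10 and -0.21 in L-proline 1, 2 and 3, against 0.03, 0.20 and 0.07 in PBS 1, 2 and 3, on the log2 scale. L-proline 2 thus lay above PBS 1 and PBS 3 by this measure. For mitosis genes the same median was -0.16, -0.07 and -0.45 in L-proline, against 0.21, 0.17 and 0.25 in PBS, so that all 3 L-proline libraries lay below all PBS libraries. L-proline 2 lay below the lowest PBS library for 15 of the 44 replication genes (34.1%), 63 of the 73 mitosis genes (86.3%) and 40.2% of all genes. L-proline 3 was the lowest library for the mitosis median, whereas L-proline 1 and 3 were close together for the replication median. L-proline 2 was the highest of its group for 60.3% of the mitosis genes, and PBS 2 for 34.2%.

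**Figure D5:**
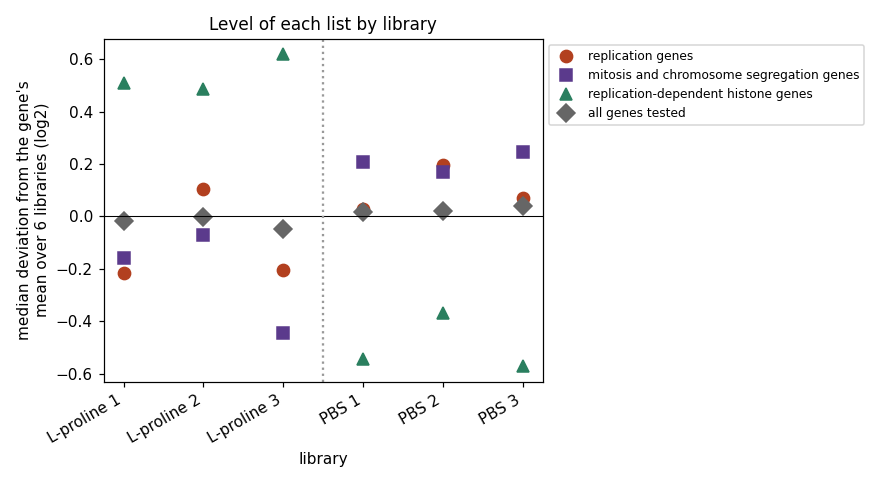
Median deviation of each list's genes from their own mean over the 6 libraries (log2 scale, vertical axis) in each library (L-proline left of the dotted line, PBS right). Replication genes (circles) reach 0.10 in L-proline 2, inside the PBS range of 0.03 to 0.20, whereas mitosis genes (squares) stay below 0 and histone genes (triangles) lie at 0.49 to 0.62 in the L-proline libraries.

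Histone mRNAs went the other way. Replication-dependent histone genes are transcribed in S phase to package new DNA, and their mRNAs normally end in a stem-loop without a poly(A) tail, while these libraries were made from polyadenylated RNA. Of 90 symbols searched, 61 were listed and 18 reached a mean of 1 FPKM. Of these 18, 17 rose, against 788 of all 10500 genes tested, and none fell. A gene that reached the filter through its higher group had to differ, so this count describes those genes only. With no filter, 32 of the 61 rose, against 857 of all 14408 genes. The median log2 fold change was 0.48 over the 61, against 1.12 over the 18. At a mean of at least 5 FPKM all 3 rose, against 669 of all 7568 genes. H2bc4 stood at 104, 102 and 103 FPKM in L-proline, against 35.7, 40.4 and 41.8 FPKM in PBS, with a log2 fold change of 1.37 ± 0.08 (adjusted p = 6.84e-05, limma). H4c9 stood at 15.3, 16.3 and 19.8 FPKM in L-proline, against 5.62, 4.77 and 6.02 FPKM in PBS, with a log2 fold change of 1.48 ± 0.12 (adjusted p = 0.000326, limma). Both genes had L-proline libraries far above PBS. At a lower level, H2bc18 had a log2 fold change of 2.24 ± 0.20 (adjusted p = 0.000481, limma). H1f5 stood at 2.47, 2.48 and 3.01 FPKM in L-proline, against 0.605, 0.280 and 0.549 FPKM in PBS. It reached the filter only through L-proline, so its log2 fold change of 1.31 ± 0.12 is given without a test. Because many histone genes are near-identical copies of each other, it is uncertain which copy a fragment came from.

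Of 12 tested genes that process or regulate histone mRNAs, 1 rose (8.33%, against 7.5% of all genes) and 2 fell (16.7%, against 12.1%), shares near those of all genes. Ncbp1, a subunit of the nuclear cap-binding complex, rose by a log2 fold change of 0.39 ± 0.08 (adjusted p = 0.0158, limma). Slbp and the exonuclease gene Eri1, which trims and degrades histone mRNAs, fell, with a log2 fold change of -0.38 ± 0.11 for Eri1 (adjusted p = 0.0475, limma). Npat, a coactivator of histone gene transcription, averaged 2.17 FPKM in L-proline and 3.17 FPKM in PBS and did not pass (adjusted p = 0.221, limma). The remaining 8 did not pass either. Without PBS 3, without PBS 1 or without both libraries numbered 2, none of the 12 passed.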

How the data were processed

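The authors deposited 1 table of FPKM values with 6 library columns and 14408 gene symbols, per the file headers. HISAT2, HTSeq 0.13.5 and the build GRCm39 are named in the submitters' processing notes; which step each served, the strand setting and the gene annotation are not given in the sources used here. FPKM depends on gene length and on the other abundant genes of a library. Group and replicate number came from the sample titles. Values divided into whole fragments for 14408 of 14408 genes at a tolerance of 0.01, with library totals solved from 13 mitochondrial genes. A gene of 1 kb seen in 0 fragments could lie at up to 0.0857 FPKM (3 fragments, counting error only).

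L-proline was compared with PBS by limma 3.58.1 (R 4.3.3), using log2(FPKM + 1) and a two-sided moderated test whose variance follows the mean. Genes averaging 1 FPKM or more, 10500 in all, entered the test, p-values were adjusted over these by the Benjamini-Hochberg method, and 0.05 was the threshold. Fold changes on this scale understate the change of genes at low levels. "Rose" and "fell" mean past the threshold, SD is over n = 3 libraries, and SE is that of the log2 fold change. The script was checked on simulated data. Libraries within a group differed by 7.81 to 77.9 chi-square per degree of freedom, more than counting noise.

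All 44 genes are accounted for by name, with values per library for those past the threshold and for the defining genes of each role; of each other list, up to 4 genes with the smallest p are described, and others were named after their values were seen. Some genes of these lists are counted but not reported by name here. The genes and lists were chosen with earlier results of these data known. Exon overlaps came from GENCODE M21 and promoters from RefSeq, both on GRCm38, and 14145 symbols matched the RefSeq gene table. Alternatives were the pseudocount, the filter, 3 scalings, a robust variance model, library weights, limma-voom on recovered fragments, a replicate block and leaving out each library.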

Additional observations from a re-analysis of the deposited data

How the results depend on the processing

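The number of replication genes lower in L-proline was 11 in the main fit. It was 7 with no filter on level (15.9%, against 8.74% of all genes) and 7 under median-of-ratios scaling (15.9%, against 8.75%). It was 6 under quantile normalization (13.6%, against 9.67%) and 5 without both libraries numbered 2 (11.4%, against 3.58%). With 1 library left out it ran from 2 to 17. It was 10 to 13 under the other alternatives apart from the replicate block; the 12 with library weights were 27.3% of the list, where 27.4% of all genes were lower. The number higher was 0 except with library weights (limma's array weights), where 3 rose, Rfc3, Rfc4 and Tyms. The median log2 fold change of -0.20 was -0.057 with library weights, where the median of all genes was -0.049. It ran from -0.33 without L-proline 2 (all genes -0.071) to -0.14 without PBS 2 (all genes -0.057). Mitosis genes lower numbered 37 in the main fit and 14 without both libraries numbered 2 (19.2%, against 3.58% of all genes). With 1 library left out they numbered from 13 (17.8%, against 4.84%) to 48 (65.8%, against 17.1%). Histone genes higher numbered 17 of 18 in the main fit, against 788 of all 10500 genes. They numbered 32 of 61 with no filter, against 857 of 14408. At a mean of at least 5 FPKM they numbered 3 of 3, against 669 of 7568. Other replication genes lower numbered 10 in the main fit. They numbered 5 at a mean of at least 5 FPKM (14.3%, against 13.1% of all genes). With library weights they numbered 19 (35.8%, against 27.4%), and without both libraries numbered 2 they numbered 3 (5.66%, against 3.58%). With 1 library left out they numbered from 3 (5.66%, against 4.84%) to 17 (32.1%, against 17.1%). The causes were not tested. The filters change how many genes are tested, but all 44 replication genes were tested both in the main fit and with no filter. Over all genes, 788 were higher and 1268 lower, against 993 and 919 under median-of-ratios scaling, 1079 and 1015 under quantile normalization, 1798 and 2873 with library weights, and 362 to 965 higher and 508 to 1797 lower with 1 library left out. Of the 44 replication genes, none called in the main fit or in an alternative changed sign between them; 12 called in neither did, at sizes of up to 0.22: Orc6, Mcm10, Mcm5, Gins3, Pole, Rfc2, Fen1, Rpa1, Chaf1a, E2f1, Ccne1 and Ccne2. The groups share replicate numbers, but libraries with the same number did not all deviate together from their group means (correlations 0.65, 0.42 and -0.35). L-proline 3 correlated best with PBS 2 (0.53). Deviations from a mean of 3 libraries are not independent, so these correlations cannot decide whether the numbers pair the libraries. A fit with the replicate number as a block gave 15 replication genes lower (34.1%, against 14.0% of all genes), with Cdc6, Mcm3, Mcm6 and Mcm7 added. It gave 0 higher, against 908 of all 10500 genes. Replication genes had at least 184 fragments in each library, and each group had 3 libraries.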
